A study of Mus musculus with 10 samples.

Results

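The clones followed here carried barcodes of the mCHERRY library and were already abundant before retransplantation. A barcode was taken when its name placed it in that library and it had at least 100 CPM (barcode reads scaled to 1000000 per sample) in the baseline sample of donor mouse 1 or of donor mouse 2. This gave 1083 clones, 531 in donor 1 and 552 in donor 2, with 0 in both. They were selected on their baseline CPM, so that their baseline levels and the changes from them, lost and expanded shares between baseline and disease included, are a description with no test. The table listed 19704 barcodes, 10295 of them mCHERRY, and 4170 mCHERRY barcodes had reads in at least 1 sample. Each clone was followed in the 4 disease samples of its own donor.

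SPLINTR barcoding inserts a short DNA sequence into the genome of a cell through a lentivirus that also carries a fluorescent protein gene, here mCHERRY, BFP or GFP. All descendants of the cell inherit the barcode, so that its share of the barcode reads stands for the share of that clone among the sampled cells. MLL-AF9, the fusion of Kmt2a and Mllt3, drives an acute myeloid leukaemia in which cells with self-renewal capacity regenerate the disease after transfer. Each recipient receives a sample of the leukaemia cells, and the clones that engraft and grow make up the new disease.

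Barcodes were read from genomic DNA of MLL-AF9 leukaemia cells that had begun as c-Kit-positive progenitors marked while cultured with SCF, IL-3 and IL-6. Each of the 2 donor mice gave a baseline sample of the cells before transfer, and bone marrow and spleen at disease from NSG recipients, mice without T, B or natural killer cells, and from PTPRCA recipients, an immunocompetent strain with a CD45 variant. The 10 samples therefore formed 5 groups with 1 sample per donor in each, and all groups shared the fusion and the barcode libraries. The number of recipients behind a sample was not stated in the labels, and both tissues of 1 strain may share animals, so that strain and individual recipient cannot be told apart.

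Depth was 5171235 to 10394809 reads per sample, in 23 libraries, and 3 reads, the upper limit that a count of 0 allows, came to 0.289 to 0.580 CPM. The 95% Wilson interval of a read share reached at most 0.0406 percentage points to either side, and these limits take in counting error alone, because reads amplified without molecular identifiers do not count independent molecules. Among the samples made of 2 libraries, a pair of donor 1 stood apart from the others in how well the libraries matched. Among clones at 100 to 1000 CPM in the sample with reads in both libraries, 52 of 88 were over 2-fold apart in PTPRCA spleen (median ratio 2.31) and 18 of 71 in NSG bone marrow (median ratio 1.49). In the 4 other disease samples made of 2 libraries, the median ratio was 1.03 to 1.11. NSG spleen of donor 1 and NSG bone marrow of donor 2, made of 3 and 4 libraries, were not compared in this way. The baseline libraries, on which the choice of clones rests, had median ratios of 1.10 in donor 1 and 1.2 in donor 2, with 0 of 487 and 9 of 497 clones over 2-fold apart. Of these clones, 462 and 456 reached 100 CPM in each library on its own.

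The baseline sample of donor 2 also held reads of donor 1 clones. Of the 531 donor 1 clones, 94 (17.7%) stood at or above the CPM limit of 3 reads there. They had 0.551 to 71.5 CPM, with a median of 3.95 CPM. In any disease sample of donor 2 the number was 0 or 1. Nearly all these reads came from 1 library. Of the 106 clones with any read, 104 had them only in the second library, which held 4489 such reads against 12 in the first. None reached 100 CPM, so that no donor 2 clone was taken for this reason. Of the 552 donor 2 clones, 0 to 4 were at or above that limit in any donor 1 sample, at no more than 2.25 CPM. The source of the reads was not tested.

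Between baseline and disease the chosen clones came to hold a larger share of all reads while most single clones became rarer. In donor 1 they held 21.7% of reads at baseline, 28.6% in NSG bone marrow, 27.0% in NSG spleen, 35.8% in PTPRCA bone marrow and 34.1% in PTPRCA spleen. In donor 2 the share was 26.3% at baseline, then 47.3% in NSG bone marrow, 40.7% in NSG spleen, 49.8% in PTPRCA bone marrow and 38.1% in PTPRCA spleen. All 8 disease samples thus lay above their own baseline. The median clone went the other way. In donor 1 it stood at 231 CPM at baseline and at 3.08, 0.536, 9.50 and 7.77 CPM in the bone marrow and spleen of NSG and the bone marrow and spleen of PTPRCA recipients. In donor 2 it stood at 268 CPM at baseline and at 43.1, 20.0, 32.7 and 32.8 CPM in the same order. Among mCHERRY reads alone, the chosen clones made up 89.3% at baseline of donor 1 and 63.2% to 72.6% at disease, and 89.7% and 79.3% to 86.2% in donor 2. The rest of the mCHERRY reads came from clones that were under 100 CPM at baseline. The whole mCHERRY library rose from 24.3% of all reads at baseline to 42.6% to 52.2% at disease in donor 1. In donor 2 it rose from 29.3% to 47.7% to 57.8%. The rise in read share was thus not particular to the chosen clones.

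Reads gathered in few clones. The effective number of chosen clones, which is the exponential of their Shannon entropy, was 316 in donor 1 at baseline and 42.5, 36.2, 46.1 and 41.7 at disease, with the samples in that order. In donor 2 it was 341 at baseline and 82.1, 85.4, 38.5 and 46.0 in the same order. The NSG samples of donor 2 kept the most even composition of the 8 disease samples. The largest chosen clone of a sample took 3.48% of the chosen clones' reads at baseline of donor 1 and 12.5% to 19.0% at disease, and 2.36% and 10.8% to 20.4% in donor 2. The 5 largest together took 10.7% at baseline and 35.8% to 43.2% at disease in donor 1, and 8.42% and 31.1% to 52.0% in donor 2.

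A clone was called lost in a sample when its CPM was below that of 3 reads at the total depth of the sample. Of the 531 donor 1 clones, 208 (39.2%) were lost in NSG bone marrow, 252 (47.5%) in NSG spleen, 112 (21.1%) in PTPRCA bone marrow and 189 (35.6%) in PTPRCA spleen. Among all 1132 barcodes of any library with at least 100 CPM in that baseline, 48.1%, 54.9%, 43.4% and 56.1% were lost in the same samples. Of the 552 donor 2 clones, 101 (18.3%) were lost in NSG bone marrow, 105 (19.0%) in NSG spleen, 90 (16.3%) in PTPRCA bone marrow and 146 (26.4%) in PTPRCA spleen, beside 42.2%, 44.2%, 41.2% and 52.8% of all 1257 barcodes. Most lost clones had no read at all, with 93 to 220 clones at 0 in the samples of donor 1 and 67 to 135 in those of donor 2. PTPRCA bone marrow retained the most clones in both donors.

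A clone was called expanded when its CPM was at least 2-fold its baseline. In donor 1, 74 clones (13.9%) had expanded in NSG bone marrow, 66 (12.4%) in NSG spleen, 78 (14.7%) in PTPRCA bone marrow and 80 (15.1%) in PTPRCA spleen, beside 8.39%, 7.86%, 8.13% and 8.04% of all barcodes of 100 CPM or more. Donor 2 had 136 (24.6%), 133 (24.1%), 100 (18.1%) and 84 (15.2%) in the same order, beside 11.9%, 11.5%, 8.83% and 7.64%. These minorities carried nearly all reads of the chosen clones, 93.2% to 96.5% in donor 1 and 88.0% to 92.6% in donor 2. A CPM of at least 10-fold the baseline was seen in 25 to 33 of 531 clones per sample of donor 1 and in 23 to 43 of 552 in donor 2. Among BFP barcodes of 100 CPM or more at baseline the counts were 2 to 10 of 580 and 0 to 3 of 686. Among such GFP barcodes the count was 0 in every sample. Of the remainder, 191 to 288 clones per sample in donor 1 and 227 to 287 in donor 2 were still detected at 0.5 times their baseline or less, and 22 to 53 and 63 to 95 held between 0.5 and 2 times.

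The fate of a clone was often shared by the 4 disease samples of a donor. In donor 1, 86 clones (16.2%) were lost in all 4, 230 (43.3%) were detected in all 4 and 215 were detected in 1 to 3. In donor 2 these numbers were 55 (9.96%), 377 (68.3%) and 120. All barcodes of 100 CPM or more were lost in all 4 samples in 29.0% and 28.2% of cases and detected in all 4 in 29.4% and 39.9%. Expansion in all 4 was found for 50 clones (9.42%) of donor 1 and 56 (10.1%) of donor 2, beside 5.04% and 4.69% of all such barcodes. These 50 clones held 78.6%, 66.7%, 85.4% and 74.5% of the chosen clones' reads in the 4 disease samples of donor 1, in the same order, and the 56 of donor 2 held 53.7%, 56.7%, 76.2% and 78.3%. Their mean disease level was 3.40 to 92.4-fold above baseline in donor 1 (median 12.4-fold) and 2.79 to 64.3-fold in donor 2 (median 8.94-fold). Leaving out PTPRCA spleen or NSG bone marrow of donor 1, whose libraries differed, gave 91 or 93 clones lost in all remaining samples, 255 or 239 detected in all and 53 or 50 expanded in all. A larger number, 109 (20.5%) and 175 (31.7%), expanded in at least 1 sample, beside 12.4% and 16.2% of all such barcodes. Conversely, 353 clones (66.5%) of donor 1 and 289 (52.4%) of donor 2 were lost or at 0.5 times baseline or less in every disease sample, beside 79.0% and 75.0%.

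Within the chosen range, abundance at baseline was only weakly related to abundance at disease. Spearman's rho between baseline and disease CPM over the 531 clones of donor 1 was -0.064, -0.14, -0.027 and -0.062 in the bone marrow and spleen of NSG and the bone marrow and spleen of PTPRCA recipients. Over the 552 clones of donor 2 it was 0.049, -0.021, 0.11 and 0.068. These values run across clones that share libraries and depth and are not independent replicates. By baseline level, loss from all 4 samples was found for 64 of 343 clones at 100 to 300 CPM, 19 of 147 at 300 to 1000 CPM and 3 of 41 at 1000 CPM or more in donor 1. In donor 2 it was found for 36 of 299, 19 of 198 and 0 of 55. Single samples did not all follow this order. In donor 1 the lost share by baseline level was 47.2%, 46.9% and 51.2% in NSG spleen and 35.0%, 34.0% and 46.3% in PTPRCA spleen, highest among the most abundant clones, against 41.4%, 36.1% and 31.7% in NSG bone marrow and 23.3%, 18.4% and 12.2% in PTPRCA bone marrow. Detection in all 4 samples was 44.3%, 43.5% and 34.1% in donor 1 and 66.6%, 70.7% and 69.1% in donor 2. Expansion in at least 1 sample was rarer at higher baseline levels, at 25.4%, 13.6% and 4.88% of clones in donor 1. In donor 2 the shares were 41.8%, 23.2% and 7.27%. Expansion is counted from a clone's own baseline, so that this order follows in part from the definition.

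The clones that were largest at baseline stood far lower at disease. In donor 1, mCHERRY_2_Barcode_552621 had 7555 CPM at baseline, 0 in NSG bone marrow and spleen, 218 in PTPRCA bone marrow and 143 in PTPRCA spleen. The next, mCHERRY_2_Barcode_499209, had 5780 CPM at baseline and 16.9, 0.402, 25.7 and 1.45 CPM in the 4 disease samples, NSG marrow and spleen first and PTPRCA marrow and spleen after them, an order kept below. mCHERRY_2_Barcode_529839 had 4165 CPM, then 13.7, 0.536, 8.79 and 0 CPM. All 3 stood lower in each disease sample than before transfer, and the first was detected in PTPRCA recipients only. The same held for mCHERRY_2_Barcode_792170, with 3281 CPM at baseline and 24.4, 7.87, 731 and 563 CPM at disease, and for mCHERRY_2_Barcode_596368, with 2532 CPM and 4.69, 0, 14.1 and 0.275 CPM.

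In donor 2, mCHERRY_2_Barcode_1134094 had 6193 CPM at baseline and 3.06, 1.53, 15.9 and 0.362 CPM at disease, a mean 1188-fold lower. mCHERRY_2_Barcode_509627 had 3993 CPM, then 0, 1.51, 7.79 and 0.523 CPM. mCHERRY_2_Barcode_927520 had 4596 CPM and kept 45.7, 19.6, 161 and 196 CPM. The first was lost in PTPRCA spleen and the second in NSG bone marrow and PTPRCA spleen, while the last was detected in all 4 samples. Of the other 2 among the 5 largest, mCHERRY_2_Barcode_345969 had 3845 CPM, then 4.14, 25.9, 42.6 and 58.6 CPM. mCHERRY_2_Barcode_29524 had 3484 CPM, then 252, 0, 6.11 and 9.25 CPM, and so was best kept in NSG bone marrow. None of these 10 clones had expanded in any disease sample.

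Clones could also disappear from a high baseline level. In donor 1, mCHERRY_2_Barcode_245613 at 2285 CPM and mCHERRY_2_Barcode_421266 at 1226 CPM before transfer had no read in any of the 4 disease samples. The only other lost clone at 1000 CPM or more, named after its values were seen, was mCHERRY_2_Barcode_43369, with 1106 CPM at baseline, 0.138 CPM in PTPRCA spleen and 0 elsewhere. In donor 2 the most abundant clone lost in all 4 was mCHERRY_2_Barcode_105060, at 973 CPM and then 0.369 CPM in PTPRCA bone marrow and 0 elsewhere. It was followed by mCHERRY_2_Barcode_62416, at 676 CPM and then 0.073 and 0.112 CPM in NSG bone marrow and spleen. By counting error alone, a value of 0 allows up to 0.580 CPM in the shallowest sample, and residual cells at lower shares were not detectable. Clones with reads in only 1 of 2 libraries reached 9.45 CPM in NSG bone marrow and 12.4 CPM in PTPRCA spleen of donor 1. A library could therefore miss a clone that stood well above the counting limit.

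The leading clones at disease did not include any of the 5 largest chosen clones of either baseline. In donor 1, 22 of 531 chosen clones reached 1% of all reads in at least 1 disease sample. Among all 1132 barcodes of 100 CPM or more at baseline, 28 did. The 22 had a baseline range of 108 to 2108 CPM and a median of 246 CPM, close to the 231 CPM of all 531. The highest mean belonged to mCHERRY_2_Barcode_8041, with 371 CPM at baseline and 47904, 8931, 44897 and 35493 CPM at disease. mCHERRY_2_Barcode_162583 had 370 CPM, then 7912, 10804, 14504 and 51414 CPM. mCHERRY_2_Barcode_746646 had 317 CPM, then 13809, 18522, 29278 and 16632 CPM. The 3 clones started at similar levels, and the highest of them was the first in both bone marrows, the last in NSG spleen and mCHERRY_2_Barcode_162583 in PTPRCA spleen. mCHERRY_2_Barcode_663729 had 359 CPM, then 11688, 51100, 596 and 876 CPM, high in both NSG tissues and low in both PTPRCA tissues. mCHERRY_2_Barcode_86777 was unusual for its start at 2108 CPM, with 15340, 15903, 11379 and 16578 CPM at disease, a mean 7.02-fold higher. It was the only donor 1 clone of 1000 CPM or more to expand in all 4 samples, and with mCHERRY_2_Barcode_746646 it formed the pair that held at least 1% of reads in each of them.

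In donor 2, 14 of 552 chosen clones reached 1% of reads, beside 17 of all 1257 barcodes of 100 CPM or more at baseline. The 14 had a baseline range of 148 to 1554 CPM and a median of 552 CPM. mCHERRY_2_Barcode_311488 had 1554 CPM at baseline and 59833, 44048, 90928 and 47255 CPM at disease. mCHERRY_2_Barcode_187286 had 1195 CPM, then 29307, 24919, 101638 and 76451 CPM. mCHERRY_2_Barcode_96127 had 772 CPM, then 24572, 25322, 31680 and 32338 CPM. These 3 exceeded 1% of reads in all 4 samples, the first pair with higher values in PTPRCA bone marrow than in any NSG sample and the last at similar levels throughout. mCHERRY_2_Barcode_529484 had 1019 CPM, then 17693, 18127, 5021 and 1851 CPM. mCHERRY_2_Barcode_599236 began at only 148 CPM and had 4860, 4630, 14469 and 14201 CPM at disease, a mean 64.3-fold higher. All of these named leaders but the last began above the median baseline level of 268 CPM. The leaders named in donor 1 all began above the median of that donor, 231 CPM.

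Clones on either side of the 100 CPM threshold included lost and expanded ones. In donor 1, 22 of 35 clones at 100 to 110 CPM were detected in all 4 samples, against 17 of 36 mCHERRY barcodes at 90 to 100 CPM. In donor 2 these counts were 14 of 30 inside and 24 of 40 outside. Just inside in donor 1, mCHERRY_2_Barcode_440241 had 100.2 CPM at baseline and 0.21, 0, 6.66 and 17.2 CPM at disease, and mCHERRY_2_Barcode_55257 had 100.2 CPM, then 606, 21.3, 21.4 and 1.51 CPM. Just outside, mCHERRY_2_Barcode_681610 had 99.9 CPM, then 56.6, 7.74, 4.65 and 2.32 CPM, and mCHERRY_2_Barcode_2520 had 99.7 CPM, then 974, 590, 4741 and 646 CPM. The last of these, left out by the rule, stood above its baseline in every disease sample. Just inside in donor 2, mCHERRY_2_Barcode_447964 had 100.007 CPM, then 106, 8.47, 68.1 and 112 CPM, and mCHERRY_2_Barcode_157877 had 100.2 CPM, then 7.78, 2.78, 0 and 0 CPM. Just outside, mCHERRY_2_Barcode_667113 had 99.96 CPM, then 0, 0, 3.03 and 9.59 CPM, and mCHERRY_2_Barcode_475197 had 99.9 CPM, then 2377, 830, 340 and 279 CPM.

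NSG and PTPRCA recipients were compared next, to ask whether the immune competence of the host was accompanied by a different set of surviving clones. The donors differed in direction. In donor 1 the share of lost clones was 18.1 percentage points higher in NSG than in PTPRCA bone marrow and 11.9 points higher in NSG spleen, while in donor 2 the differences were 1.99 and -7.43 points. The mean difference of 6.13 points had a two-sided exact permutation p of 1, with 0.5 the smallest p that exchanging strains within 2 donors can give. The share of expanded clones, NSG minus PTPRCA, was -0.753 and -2.64 points in marrow and spleen of donor 1 and 6.52 and 8.88 points in donor 2, given without a test because expansion is counted from the baseline values that chose the clones. The share of all reads held by the chosen clones differed by -7.14 and -7.17 points in donor 1 and by -2.57 and 2.61 points in donor 2 (mean -3.57, exact permutation p = 1). The effective number of clones, on a log2 scale, differed by -0.12 and -0.21 in donor 1 and by 1.09 and 0.89 in donor 2 (mean 0.42, exact permutation p = 1). Adjusted over the 9 permutation tests run, the p-values given were 1. No direction held in both donors in both tissues for any of these measures.

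Loss by strain was one-sided in donor 1. There, 67 clones (12.6%) were detected in both PTPRCA samples and lost in both NSG samples, against 9 (1.69%) with the opposite pattern. Over all 1132 barcodes of any library with at least 100 CPM at that baseline the shares were nearly even, at 7.42% and 6.1%, and among the 580 BFP barcodes the balance was the reverse, at 16 against 60. In donor 2 the numbers were 4 and 14 of the chosen clones, beside 1.91% and 5.41% of all 1257 barcodes, and 19 against 54 BFP barcodes, so that mCHERRY and BFP barcodes tilted the same way there. The 67 clones averaged 1.04 to 533 CPM in PTPRCA with a median of 12.7 CPM, and 10 of them averaged at least 100 CPM, so that most lay low but not at the detection limit. Within bone marrow alone, which leaves out the PTPRCA spleen with differing libraries, 112 clones of donor 1 were detected in PTPRCA and lost in NSG and 16 the reverse, beside 16.1% and 11.3% of all 1132 barcodes. Within spleen alone, which leaves out the NSG bone marrow, the counts were 102 and 39, beside 12.2% and 13.3%. Marrow alone still uses the NSG sample whose libraries differed, and spleen alone the PTPRCA sample whose libraries differed. The 9 averaged 0.863 to 286 CPM in NSG (median 10.9 CPM). The 4 of donor 2, named after their values were seen, were mCHERRY_2_Barcode_76270, mCHERRY_2_Barcode_374988, mCHERRY_2_Barcode_743049 and mCHERRY_2_Barcode_396807, and averaged 2.38 to 9.54 CPM in PTPRCA. The 14 averaged 0.465 to 133 CPM in NSG (median 7.91 CPM). Expansion in donor 2 tilted toward NSG, as detection did in that donor. There, 36 clones had expanded in both NSG samples and in neither PTPRCA sample and 6 the other way round, beside 3.1% and 0.557% of all 1257 barcodes. In donor 1 the counts were 7 and 11, beside 1.41% and 1.06% of 1132. The 36 averaged 327 to 7946 CPM in NSG with a median of 996 CPM.

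Among clones over 4-fold apart between strains in both tissues with 1 direction, on log2(CPM + 10), donor 1 had 21 of 531 (3.95%) with the higher level in NSG and 68 (12.8%) with it in PTPRCA. In all 1722 barcodes that reached 100 CPM in any sample of that donor, the shares were 12.8% and 6.62%. In donor 2, 51 of 552 (9.24%) had the higher level in NSG and 39 (7.07%) had it in PTPRCA, beside 10.1% and 5.36% of 1736. The rule did not use this contrast, but all chosen clones passed the abundance filter through their baseline, so these counts are a description. Of the 1722 and 1736 barcodes, only 1132 and 1257 reached 100 CPM at baseline. The others were admitted through disease values, which this contrast also uses, so the shares are not a matched background. Without PTPRCA spleen of donor 1, whose libraries differed, and so in bone marrow alone, the donor 1 counts were 46 and 90. Without its NSG bone marrow, in spleen alone, they were 30 and 102. Each of these comparisons still uses the other sample whose libraries differed. Shares over all barcodes within 1 tissue are not given, so these counts have no background beside them. The clones that moved in opposite directions in the tissues were few and were named after their values were seen, mCHERRY_2_Barcode_439215 in donor 1 and mCHERRY_2_Barcode_512882, mCHERRY_2_Barcode_424814 and mCHERRY_2_Barcode_38317 in donor 2. Across clones, the strain difference in bone marrow and that in spleen had a Spearman's rho of 0.70 in donor 1 and 0.65 in donor 2. Marrow and spleen of 1 strain resembled each other more (rho 0.88 and 0.91 in donor 1, 0.94 and 0.94 in donor 2) than samples of different strains did (0.62 to 0.69 and 0.76 to 0.80). These are correlations over clones of the same donor, given without a test.

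The clones furthest toward NSG in donor 1 were of moderate size. mCHERRY_2_Barcode_323017 had 142 CPM at baseline and 485, 915, 2.77 and 2.34 CPM at disease, a mean log2 difference of 5.75, and its NSG bone marrow libraries stood at 835 and 135 CPM. mCHERRY_2_Barcode_1197221 had 126 CPM, then 551, 1848, 16.3 and 22.8 CPM, a log2 difference of 5.12. mCHERRY_2_Barcode_112927 had 120 CPM, then 1052, 334, 22.7 and 0 CPM, a log2 difference of 5.06. All 3 lay above their baseline in NSG and below it in PTPRCA. Toward PTPRCA, mCHERRY_2_Barcode_506275 had 189 CPM, then 8.18, 4.87, 375 and 5038 CPM, a log2 difference of -6.41. mCHERRY_2_Barcode_129961 had 561 CPM, then 32.7, 82.6, 5107 and 4958 CPM, and mCHERRY_2_Barcode_249359 had 116 CPM, then 18.7, 11.2, 2257 and 1685 CPM, at log2 differences of -6.32 and -6.31. These reversed the pattern, each above its baseline in PTPRCA and below it in NSG.

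Donor 2 held the widest strain difference. mCHERRY_2_Barcode_63551 had 328 CPM at baseline, 4558 CPM in NSG bone marrow and 10742 CPM in NSG spleen, but 2.49 and 3.69 CPM in PTPRCA bone marrow and spleen, a mean log2 difference of 9.07. mCHERRY_2_Barcode_380639 had 205 CPM, then 473, 1639, 2.00 and 5.77 CPM, and mCHERRY_2_Barcode_790448 had 211 CPM, then 2940, 3260, 22.7 and 60.3 CPM, both at a log2 difference of 6.02. In the other direction, mCHERRY_2_Barcode_377112 had 2467 CPM, then 5.24, 5.53, 572 and 1562 CPM, a log2 difference of -5.96. It lay below its baseline in all 4 samples, so that it was better retained in PTPRCA but its share of reads had not risen there. mCHERRY_2_Barcode_872557 had 288 CPM, then 4.93, 0.572, 420 and 999 CPM, and mCHERRY_2_Barcode_265377 had 979 CPM, then 11.3, 21.0, 930 and 972 CPM, at log2 differences of -5.71 and -5.22. The last was at its baseline level in PTPRCA.

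Clone by clone, limma on log2(CPM + 10) with 1 mean per group called 0 of 3443 barcodes (0%) between strains at a Benjamini-Hochberg adjusted p below 0.05, and 0 of the 1083 chosen clones. At an unadjusted p below 0.05 it counted 1 barcode and 0 chosen clones. Each chosen clone was abundant in 1 donor only, so that the 2 samples of a group were far apart, and 0 calls say little about these clones. With donor as a block limma called 10 barcodes (0.29%), and 1 chosen clone, mCHERRY_2_Barcode_63551, at a log2 difference of 4.53 ± 0.95 (SE) averaged over the donors and an adjusted p of 0.00198. That fit counted 81 of the 1083 chosen clones at an unadjusted p below 0.05, beside 248 of all 3443 barcodes. It treats the tissues of 1 strain as independent, and when they were averaged first the adjusted p of this clone was 1. Without the block it was also 1, and in donor 2 alone limma gave 0.297, with 0 barcodes called in either donor alone. The fits within donors 1 and 2 counted 103 of 531 and 113 of 552 chosen clones at an unadjusted p below 0.05. Over all barcodes they counted 333 of 1722 and 284 of 1736.

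Bone marrow and spleen of the same donor and strain were close. The share of lost clones was higher in spleen in all 4 pairs, by 8.29 and 14.5 points in NSG and PTPRCA of donor 1 and by 0.725 and 10.1 points in donor 2. The mean of 8.41 points had a two-sided exact permutation p of 0.13, the smallest that 4 pairs allow, and 0.56 after adjustment over the 9 tests. The read share of the chosen clones was lower in spleen in all 4 pairs, at -1.69 and -1.66 points in donor 1 and -6.60 and -11.8 points in donor 2 (mean -5.43, exact permutation p = 0.13, adjusted 0.56). The share of expanded clones differed by -1.51 and 0.377 points in donor 1 and by -0.543 and -2.90 points in donor 2, again without a test. The log2 effective number differed by -0.23 and -0.14 in donor 1 and by 0.057 and 0.25 in donor 2 (mean -0.016, exact permutation p = 1). None of the tested differences passed the adjusted threshold. Spleen was the shallower sample in PTPRCA of donor 1 (6469848 reads against 7018103 in marrow), NSG of donor 2 (8468238 against 10394809) and PTPRCA of donor 2 (5634747 against 5826384), and the deeper one in NSG of donor 1 (8606343 against 5171235). The part of depth in the loss difference was not tested.

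Loss confined to the spleens of both strains, seen in 2.74% and 2.47% of all barcodes of 100 CPM or more in donors 1 and 2, was found for 22 clones of donor 1 and for 4 of donor 2, named after their values were seen (mCHERRY_2_Barcode_5739, mCHERRY_2_Barcode_83934, mCHERRY_2_Barcode_20957 and mCHERRY_2_Barcode_58994). In donors 1 and 2, 35 (6.59%) and 25 (4.53%) clones were detected in PTPRCA bone marrow only, near the 6.71% and 6.21% of all such barcodes. These lay low, at medians of 1.63 and 1.36 CPM, just above the detection limit. Single clones over 4-fold higher in 1 tissue in both strains were rare. In donor 1, 0 clones were higher in spleen and 2 in marrow, beside 0.29% and 0.639% of all 1722 barcodes. In donor 2, 2 were higher in spleen and 0 in marrow, beside 0.23% and 0.288% of 1736. These shares over all barcodes also take in barcodes that reached 100 CPM in a disease sample alone. The donor 1 pair was mCHERRY_2_Barcode_110834, with 160 CPM at baseline and 325, 50.5, 457 and 18.6 CPM at disease, and mCHERRY_2_Barcode_229406, named after its values were seen, with 275, 53.1, 413 and 42.9 CPM. The donor 2 pair was mCHERRY_2_Barcode_835296, with 665 CPM at baseline and 152, 1930, 462 and 3314 CPM at disease, and mCHERRY_2_Barcode_168853, with 144 CPM and 42.0, 916, 38.6 and 215 CPM. Across clones, tissue differences in NSG and in PTPRCA had a Spearman's rho of 0.081 in donor 1 and -0.016 in donor 2, and so were barely related. In donor 1 each difference includes a sample whose libraries differed, and clones lost in both tissues are counted too. The part of noise in these values was not tested.

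Other clones lay at the ends of the mean tissue difference without being over 4-fold apart in both strains on that scale. In donor 1, mCHERRY_2_Barcode_396181 had 192 CPM at baseline and 1055, 8415, 108 and 394 CPM at disease. mCHERRY_2_Barcode_404199 had 158 CPM, then 0, 5.49, 24.8 and 291 CPM, and its PTPRCA spleen libraries stood at 99.0 and 483 CPM. In donor 2, mCHERRY_2_Barcode_289696 had 255 CPM, then 23242, 1390, 522 and 315 CPM, by far the highest in NSG bone marrow. mCHERRY_2_Barcode_475144 had 451 CPM, then 93.4, 16.8, 252 and 31.2 CPM, lower than its baseline everywhere. By limma, 0 of 3443 barcodes (0%) were called between spleen and marrow, with 0 at an unadjusted p below 0.05, and 0 (0%) with donor as a block. Fits within a donor counted 27 of 531 and 16 of 552 chosen clones at an unadjusted p below 0.05 in donors 1 and 2. Over all barcodes these fits counted 66 of 1722 and 55 of 1736.

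The same choice of at least 100 CPM at baseline took 580 and 686 BFP barcodes and 21 and 19 GFP barcodes in donors 1 and 2. BFP clones were lost more often in every disease sample. In donor 1, 57.2%, 62.8%, 64.8% and 76.2% of them were lost in the disease samples, in the order used above, so that the mCHERRY share was lower by 18.1, 15.3, 43.7 and 40.6 points. In donor 2, 61.5%, 64.6%, 61.7% and 74.6% were lost, and the mCHERRY share was lower by 43.2, 45.6, 45.4 and 48.2 points. The mean mCHERRY minus BFP difference of -37.5 points (-29.4 in donor 1 and -45.6 in donor 2) gave p = 0.5 in an exact permutation test, as low as 2 donors can go, and 1 after adjustment. The gap between libraries in donor 1 was narrower in NSG than in PTPRCA, where mCHERRY loss was higher in NSG and BFP loss was lower. Loss from all 4 samples was found for 240 (41.4%) and 294 (42.9%) of the BFP clones, and expansion in all 4 for 1.21% and 0.437% of them. GFP clones were lost in 14.3% to 28.6% of cases per sample in donor 1 and 26.3% to 42.1% in donor 2, and 0 expanded in all 4 samples in either donor.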

How the data were processed

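Barcodes were amplified by PCR from genomic DNA of sorted leukaemia cells with the lysate divided into technical replicates, per the labels' protocols. Bowtie 1.2.2 and R 3.6 were used per the submitters' processing notes. How replicates were combined is not given in the sources used here, and the values deposited by the authors were CPM, summing to 1000000 in each of the 10 samples, and 0 columns belonged to other samples. Each low value was a sum of whole multiples of 2 to 4 steps, from which the reads of 23 libraries were recovered (to within 0.00782 of a whole read, with 0.05 tolerated). No single step gave whole reads for a column, so no count model was run.

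Same-numbered samples came from 1 donor mouse, per the labels, and so were paired. Their deviations from the group means correlated at 0.466 to 0.944 over 10 pairs of groups (3443 barcodes). Lost meant a CPM below that of 3 reads at the total depth of the sample, decreased at most 0.5 times baseline and expanded at least 2-fold. Sample values were compared by exact permutation, two-sided, in which the strains of a donor or the 4 tissue pairs were exchanged, with Benjamini-Hochberg adjustment over 9 tests, of which those of the expanded share are not reported because that share uses baseline values. The limma fit (trended eBayes after lmFit, on log2 of deposited CPM plus 10) covered the 3443 barcodes that reached 100 CPM in any sample and was checked on simulated data. Its folds understate changes of rare clones. P-values measure the spread between these samples, which may be technical, and both tissues of 1 donor and strain share their source.

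Named clones were, per donor, the 5 highest at baseline and the 5 highest by mean at disease, the 3 with the largest strain difference and the 2 with the largest tissue difference in each direction with 1 sign in both settings, the 2 nearest the threshold on each side, the 2 most abundant of those lost in all 4 samples, and clones called by limma. Exceptions are marked in the text. The clones, lists and tests were chosen with earlier results of these data known. Alternatives were other detection limits, folds, thresholds, pseudocounts and filters, donor as a block, and each donor left out. Leaving out either donor 1 sample whose libraries differed was chosen after seeing the data. Barcode sequences were not used here. Software was limma 3.58.1 in R 4.3.3, and scipy 1.17.1, pandas 2.3.3 and numpy 2.4.6 in Python 3.11.15.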

Additional observations from a re-analysis of the deposited data

Results flagged for a closer look

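Some measures of the chosen clones moved one way in both pairs of donor 1 and the other way in both pairs of donor 2, a difference between the donors that was not tested. The expanded share, NSG minus PTPRCA, was lower by a mean of 1.69 percentage points in donor 1 and higher by 7.70 points in donor 2, so that donor 1 minus donor 2 was -9.39 points. The log2 effective number of clones, NSG minus PTPRCA, averaged -0.16 in donor 1 and 0.99 in donor 2, a difference of -1.15. The log2 effective number, spleen minus marrow, averaged -0.19 and 0.16, a difference of -0.34.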

How the results depend on the processing

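The 4 measures compared between strains depended on the donor. Over the leave-one-donor-out values, the lost share, NSG minus PTPRCA, ranged from -2.72 to 15.0 points, the expanded share from -1.69 to 7.70 points, the read share from -7.16 to 0.0213 points and the log2 effective number from -0.16 to 0.99, each reversing its mean. The log2 effective number, spleen minus marrow, ranged from -0.19 to 0.16, and was 0.0064 with clones of at least 300 CPM at baseline, 0.026 without PTPRCA spleen of donor 1 and 0.056 without its NSG bone marrow, all reversed from -0.016. With loss set at 10 CPM, 203 and 138 clones of donors 1 and 2 were lost in all 4 samples and 129 of donor 1 were detected in all 4. With expansion set at 4-fold, 31 and 28 expanded in all 4. Clones over 4-fold higher in NSG in donor 1 numbered 35 and 11 with pseudocounts of 1 and 100 CPM, 40 at 2-fold, 46 without PTPRCA spleen of donor 1 and 30 without its NSG bone marrow, and those higher in PTPRCA 120, 16, 113 and 90, or 102 without that NSG sample. In donor 2 those higher in NSG numbered 23 with a pseudocount of 100 CPM and 98 at 2-fold, and those higher in PTPRCA 9 and 81. Shares over all barcodes are not given at these other settings. Whether the changes in count are particular to the chosen clones was therefore not tested. Detection in the other donor at 10 CPM or more left 21 of 95 clones of donor 1 and 0 of 6 of donor 2. With the replicate block for the donor pairing, limma called 1 chosen clone between strains in place of 0. Among all 3443 barcodes it called 10 in place of 0 between strains, and between spleen and marrow 0 with and without it. Leaving a donor out of limma could not be fitted, since 1 sample per group leaves no residual degrees of freedom, and fits within a donor over strain and tissue were used. Of 107 alternative values of 23 results, 80 kept their direction and their side of the threshold or their size. The cause of the other changes was not tested. By counting error alone, depth limits loss to clones below 0.289 to 0.580 CPM.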

Other observations

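The 94 donor 1 clones detected in the baseline of donor 2 held many of the clones that became abundant at disease in donor 1. Of them, 68 (72.3%) had expanded in at least 1 disease sample of donor 1 and 0 were lost in all 4, against 41 of 437 (9.38%) and 86 among clones not detected there. Over the 531 clones, CPM in the donor 2 baseline had a Spearman's rho of -0.14 with the donor 1 baseline, 0.62 with NSG bone marrow, 0.63 with NSG spleen, 0.51 with PTPRCA bone marrow and 0.47 with PTPRCA spleen of donor 1. The highest was mCHERRY_2_Barcode_269028 at 71.5 CPM, which had 110 CPM in its own baseline and 14304, 3763, 988 and 156 CPM in the disease samples of donor 1, NSG marrow and spleen before PTPRCA marrow and spleen. mCHERRY_2_Barcode_8041, the leading clone of donor 1, was at 55.5 CPM there. The library of the donor 2 baseline that held nearly all these reads had 0.165% of its reads in them, against 0.000395% in the other. Among the 497 donor 2 clones split by library, the ratio of both baseline libraries had a Spearman's rho of -0.055 with mean disease CPM. These relations were looked for after the data were seen, and the source of the reads was not tested.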
